A study of Homo sapiens with 6 samples.

Results

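The genes examined here are the MYC and MAX network, a set of 10 genes chosen by name from the table of 32364 Ensembl genes: MYC, MYCN, MAX, MXD1, MXD3, MXD4, MXI1, MNT, MGA and MLX. All 10 were found once each by mapping the Ensembl identifiers to GENCODE release 29 symbols. The rule that picks them uses names and no measured value. Kasumi-1, a human line from acute myeloid leukemia, carries a translocation that joins RUNX1 with RUNX1T1. The mRNA sequencing data hold 3 control libraries and 3 libraries of cells incubated with 0.5 µM I13, a histone deacetylase (HDAC) inhibitor, all collected at 48 h. The methods give dimethyl sulfoxide at the concentration of the drug solution as the control. All 6 libraries come from 1 cell line in culture. The study's legend for the sequencing calls its figures representative of 3 independent experiments, without tying these to the libraries. The labels do not say whether libraries of a group came from separate cultures, so the p-values measure the spread between these libraries, which may be technical.

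MYC and its relative MYCN are transcription factors that bind DNA as dimers with MAX, and the MYC:MAX dimer activates genes for growth, nucleotide and ribosome synthesis. MAX also pairs with the proteins of MXD1, MXD3, MXD4 and MXI1, with MNT and with MGA, and these dimers occupy the same sites and repress through corepressors that carry histone deacetylases. MLX has its own partners, MLXIP (MondoA) and MLXIPL (ChREBP), which respond to glucose, and it can also pair with some of the MXD proteins and with MNT. In blood cells MYC is known for supporting the proliferation of progenitors, and a change from MYC:MAX to MXD:MAX dimers is known from myeloid differentiation.

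The dimers recognise the E-box CACGTG, which reads the same on both strands. The RefSeq promoter table (build GRCh38.p14) holds windows of 300 bases, from 250 bases before to 50 after a gene start, for 9 of the 10 genes. The E-box was in 3 of the 14 windows of these genes (21.4%), against 7.26% of all 35116 windows. It was in 15 of 32 windows (46.9%) of a list of known MYC-activated genes described further on, with windows for 25 of its 31 genes. That list was chosen as MYC targets from general knowledge, so its share is not a test of the motif. The motif was searched by its letters alone, and a match is not evidence of binding in these cells. The stretches around the motif of the 3 network genes, and of the 3 most abundant targets that hold one before the start, are printed 5′ to 3′ on the strand of the gene with the E-box in capitals. They show the DNA element that MYC:MAX, MXD:MAX and MLX dimers can all bind.
MXD4, chr4:2262330-2262359, minus strand: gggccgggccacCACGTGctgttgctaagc
MNT, chr17:2401236-2401265, minus strand: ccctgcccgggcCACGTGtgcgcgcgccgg
MLX, chr17:42567038-42567067, plus strand: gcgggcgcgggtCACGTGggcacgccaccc
APEX1, chr14:20455191-20455220, plus strand: aggtccgctaccCACGTGggggctcagcgt
HSPD1, chr2:197500345-197500374, minus strand: cggccctggcgaCACGTGaaaaaatcaccc
ODC1, chr2:10448024-10448053, minus strand: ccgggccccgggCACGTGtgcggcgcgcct
The E-box began 238, 193 and 50 bases before the RefSeq start in MXD4, MNT and MLX. APEX1, a DNA repair endonuclease gene, held it 3 times before the RefSeq start. The copy nearest that start, which begins 23 bases before it, is shown. The RefSeq starts differ from the GENCODE gene coordinates given for the network genes below, so these distances do not apply to those coordinates.

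Levels are in FPKM as deposited by the authors, a unit that corrects for gene length and sequencing depth. The lengths behind the values were exon lengths per gene, such as 3001 bases for MYC with 9 annotated transcripts and 4430 for MAX with 19. Which transcripts the cells express was not tested, so comparisons of level between genes depend on these lengths. The depth implied by the values was 16566742 to 17221345 fragments per control library and 15281052 to 16682550 per I13 library. The markers of the leukemic blast (RUNX1, RUNX1T1, MPO, KIT, CD34 and CD33) were all expressed, at 10.8 FPKM or more in every library. Their summed FPKM was 12019 to 12762 per control library and 10576 to 12079 per I13 library. Most of this sum was MPO alone, at 11686 to 12450 FPKM in control and 10241 to 11783 FPKM in I13 libraries. CD33, a myeloid surface receptor gene, did not overlap between the groups, at 10.8 to 11.9 FPKM in control and 12.7 to 13.7 FPKM in I13 libraries. Such a pattern was found for 9.52% of all genes tested further on. The other blast markers overlapped between the groups. Among them, KIT was at 212 to 236 FPKM in control and 196 to 228 FPKM in I13 libraries, and CD34 at 38.3 to 43.9 and 41.7 to 45.9 FPKM. Of the markers of other cells, COL1A1 was at 0 in every library and CD3E was at 0.106 FPKM or less. EPCAM, an epithelial gene, was expressed at 20.8 to 26.5 FPKM in the control libraries and 22.2 to 26.2 FPKM in the I13 libraries. The summed FPKM of these 3 other-cell markers was 20.9 to 26.6 per control library and 22.3 to 26.2 per I13 library, and their part in the results was not tested. Over 4133 genes with a mean of at least 10 FPKM, the first principal component, with 43.3% of the variance, placed control replicate 3 together with I13 replicate 2 and away from the rest. Values over all 6 libraries are therefore accompanied by values without this pair for the network genes and TXNIP.

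After 48 h with I13, no network gene differed from control in mRNA level by more than the spread between libraries. Of the 10 genes, 9 passed the minimum mean of 0.1 FPKM and were tested with limma on log2(FPKM + 0.1) among 18726 genes. None of the 9 had an adjusted p under 0.05 (Benjamini-Hochberg), where 0 of all genes tested (0%) passed. None had an unadjusted p under 0.05 either, which 5.14% of all genes tested had. By limma's voom on fragments recovered from the FPKM values, again 0 of 9 passed the adjusted p, against 0.144% of 13852 genes, and 0 of 9 the unadjusted p, against 5.68%. For none of the 9 genes did the I13 libraries lie all above or all below the control libraries, a pattern found for 9.52% of all genes tested. The log2 fold changes lay between -0.07 (MLX) and 0.04 (MYC), 3 above 0 and 6 below 0. Their median was -0.018, and that of all genes tested was 0.0058.

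The intervals of these differences were narrow. A log2 fold change of 0.58, the size the study's methods set as its threshold, lay outside the 95% interval of all 9 genes in both directions. These intervals are for 1 gene at a time. The widest was that of MXD3, from -0.30 to 0.24, or 0.81-fold to 1.18-fold. The median absolute log2 fold change of the 9 genes was 0.03, against 0.11 over all genes tested. These medians are not matched for expression level. The 9 genes stood at the 51.9th to 99.6th percentile by mean FPKM, and all genes tested include those down to 0.1 FPKM.

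**Figure D1:**
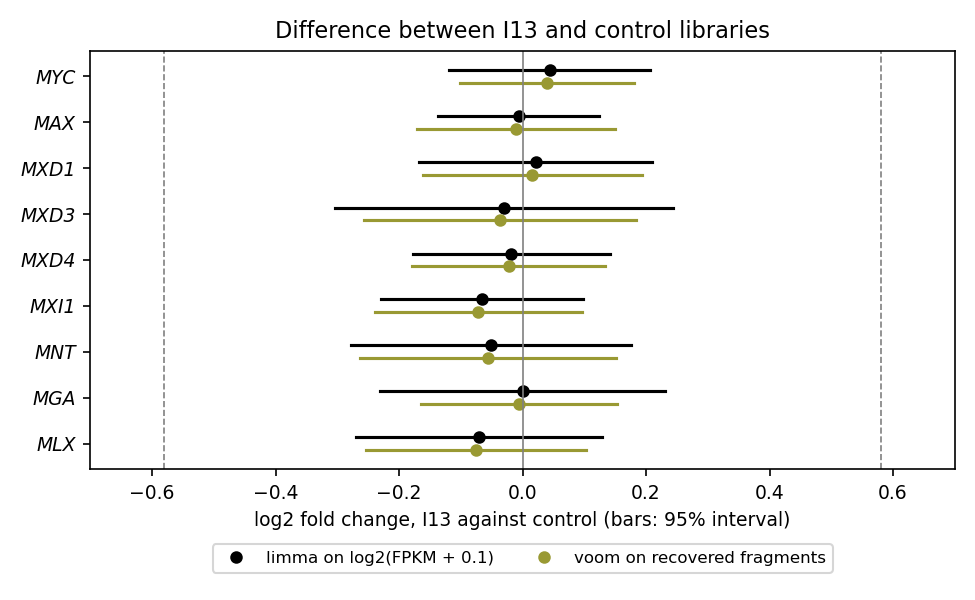
Log2 fold change of I13 against control (x axis) for the 9 network genes tested (y axis), with points for the estimate and bars for the 95% interval, from limma on log2(FPKM + 0.1) in black and from voom on recovered fragments in olive, n = 3 libraries per group. Every bar crosses 0 and stays inside the dashed lines at a log2 fold change of 0.58 in either direction.

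MYC (ENSG00000136997) lies on the plus strand of chromosome 8 from 127735434 to 127741434 (GRCh38). Its level was 374, 385 and 438 FPKM in control replicates 1, 2 and 3 and 397, 420 and 415 FPKM in I13 replicates 1, 2 and 3. The highest value was in control replicate 3 and the lowest in control replicate 1, so all 3 I13 libraries lay within the range of the controls. The mean was 399 ± 34.4 FPKM (SD, n = 3) in control and 411 ± 12.5 FPKM (SD, n = 3) in I13 libraries, a log2 fold change of 0.04 (standard error, SE, 0.069, 95% interval -0.12 to 0.21, adjusted p = 1.00 from limma). Between 18949 and 21789 fragments stood behind each value. Counting alone would give a coefficient of variation of 0.707%, and the observed one was 8.62% among the control and 3.04% among the I13 libraries.

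The libraries that stood apart in the principal component were the highest of their group for MYC. Within the other 4 libraries MYC was higher with I13 by a log2 of 0.10 (SE 0.042, unadjusted p = 0.0778, adjusted p = 0.66 from limma), and I13 replicate 2 was below control replicate 3 by a log2 difference of -0.06. Neither value passed a test, and the second is a difference of 1 library from 1 library. With control replicate 1 left out, MYC gave -0.00094 on the log2 scale (unadjusted p = 0.99 from limma). MYC stood at the 99.6th percentile of the genes tested by mean FPKM.

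MYCN (ENSG00000134323, chromosome 2 from 15940564 to 15947007, plus strand), which is best known from neuroblastoma, was close to the limit of detection. It had 2, 1 and 1 fragments in the control libraries and 8, 4 and 0 in the I13 libraries, or at most 0.193 FPKM. The groups overlapped, since I13 replicate 3 was listed at 0. At equal depth the ratio of the 12 I13 to the 4 control fragments was 3.19 with an exact 95% interval from 0.967 to 13.6, which covers counting error only. Its mean was under the minimum of 0.1 FPKM for limma and under that of 10 fragments for voom, so MYCN was in neither test. MYCNOS overlaps MYCN on the other strand.

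**Figure D2:**
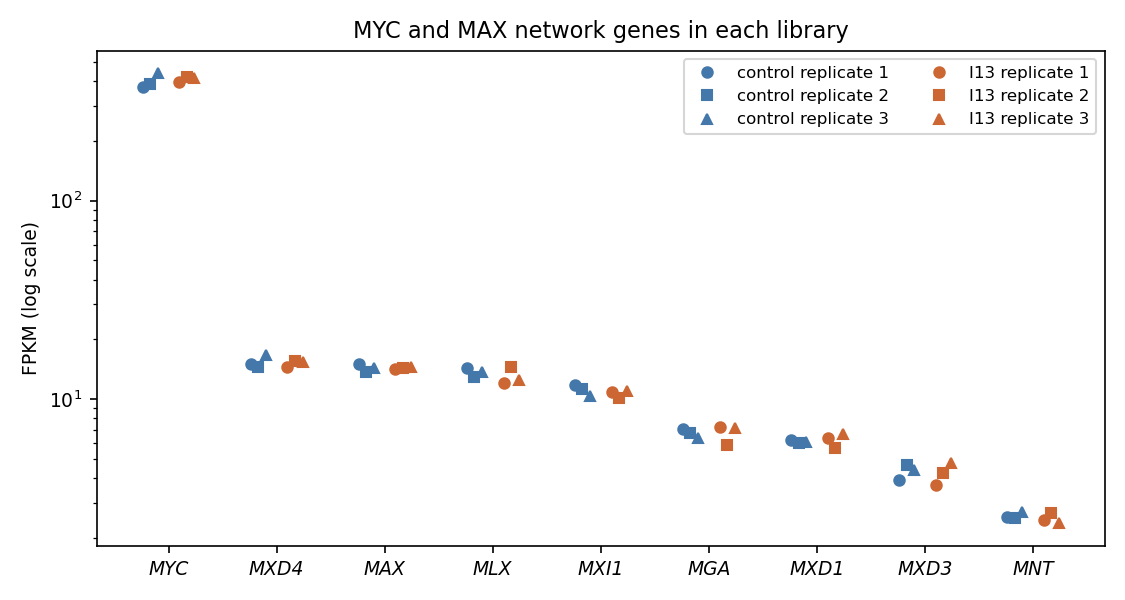
FPKM on a log scale (y axis) of 9 network genes (x axis) in each control (blue) and I13 (orange) library, with the replicate number given by the symbol and MYCN left out because of its value of 0. MYC sits between 374 and 438 FPKM, the other 8 genes between 2.37 and 16.7 FPKM, and the colours overlap for every gene.

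MAX (ENSG00000125952, chromosome 14 from 65006174 to 65102695, minus strand) encodes the common partner of MYC, MXD, MNT and MGA proteins. Its level was 15.1, 13.7 and 14.3 FPKM in the control and 14.1, 14.3 and 14.5 FPKM in the I13 libraries. The control libraries held both its highest and its lowest value. The log2 fold change was -0.006 (SE 0.055, 95% interval -0.14 to 0.12), the narrowest interval among the 9 genes. Without control replicate 3 and I13 replicate 2 it was -0.01 (SE 0.062). The ratio of MYC to MAX mRNA by FPKM was 27.8 ± 2.93 (SD, n = 3) in control and 28.7 ± 0.611 (SD, n = 3) in I13 libraries. It ranged from 24.8 to 30.7, with both ends in control libraries.

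The MXD genes encode repressors that compete with MYC for MAX and that recruit SIN3 corepressors. MXD4 (ENSG00000123933, chromosome 4 from 2247432 to 2262294, minus strand) was the most abundant of them. It was at 15.0, 14.5 and 16.7 FPKM in the control and 14.5, 15.5 and 15.5 FPKM in the I13 libraries, a log2 fold change of -0.02 (SE 0.068). Control replicate 3 was its highest library, and without control replicate 3 and I13 replicate 2 its log2 fold change was 0.02 (SE 0.052).

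MXI1 (ENSG00000119950, chromosome 10 from 110207605 to 110287365, plus strand) was at 11.8, 11.3 and 10.4 FPKM in the control and 10.9, 10.1 and 10.9 FPKM in the I13 libraries. Control replicate 3 and I13 replicate 2, which stood apart, were the lowest of their groups here. Its log2 fold change of -0.07 (SE 0.069, unadjusted p = 0.374 from limma) had the smallest p of the 9 genes. Its direction held with each library left out in turn, with log2 fold changes from -0.12 to -0.024, and without both of those libraries it was -0.08 (SE 0.050).

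MXD1 (ENSG00000059728, chromosome 2 from 69897688 to 69942945, plus strand), the member known to be induced in maturing myeloid cells, was at 6.23, 6.02 and 6.09 FPKM in the control libraries. It was at 6.37, 5.64 and 6.65 FPKM in the I13 libraries. The controls lay close together, with a coefficient of variation of 1.72%, and the I13 libraries fell on both sides of them, with one of 8.32%. The log2 fold change was 0.02 (SE 0.080, 95% interval -0.17 to 0.21). Within the 4 libraries it was 0.09 (SE 0.062, unadjusted p = 0.233 from limma), and I13 replicate 2 was below control replicate 3 by a log2 difference of -0.11.

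MXD3 (ENSG00000213347, chromosome 5 from 177301461 to 177312757, minus strand), the member linked to S phase and proliferating cells, was at 3.93, 4.64 and 4.40 FPKM in the control libraries and at 3.70, 4.25 and 4.79 FPKM in the I13 libraries. The I13 libraries held both its lowest and its highest value. With 304 to 410 fragments per library it was among the least covered of the 9 genes, and its log2 fold change of -0.03 had the largest standard error (0.12). Within the 4 libraries it was -0.02 (SE 0.16). By gene span, MXD3 overlaps RAB24, MXD1 overlaps SNRNP27 and MXI1 overlaps AL360182.1 on the same strand, and MXD4 and MGA overlap microRNA genes. On the other strand, MXD3 overlaps PRELID1, MAX overlaps FNTB and CHURC1-FNTB, and MLX overlaps PSMC3IP, among others. The sources used here do not say how fragments in such overlaps were counted.

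The summed FPKM of the 4 MXD genes was 37.0, 36.5 and 37.5 in the control and 35.5, 35.6 and 37.8 in the I13 libraries. The sum of MYC and MYCN divided by this sum was 10.1, 10.6 and 11.7 in the control and 11.2, 11.8 and 11.0 in the I13 libraries. The means were 10.8 ± 0.803 (SD, n = 3) and 11.3 ± 0.441 (SD, n = 3), so the I13 mean was 1.05 times the control mean. The difference was smaller than the control SD, which includes control replicate 3. Without control replicate 3 and I13 replicate 2, the I13 libraries (11.2 and 11.0) were above the control libraries (10.1 and 10.6). Within that pair, I13 replicate 2 (11.8) was above control replicate 3 (11.7). MXD4 made up 41.6% ± 2.43 (SD, n = 3) of the MXD sum in control and 41.8% ± 1.59 (SD, n = 3) in I13 libraries, and MXD1 made up 16.5% ± 0.310 and 17.1% ± 1.11. By fragments, which are not divided by gene length, the ratio of MYC and MYCN to the MXD family was 5.10 to 5.89 per library. Its I13 mean was again 1.05 times the control mean, so the size of the ratio between genes depends on the lengths used. These ratios are of mRNA and are given as a description, without a test, since the genes were chosen by name.

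**Figure D3:**
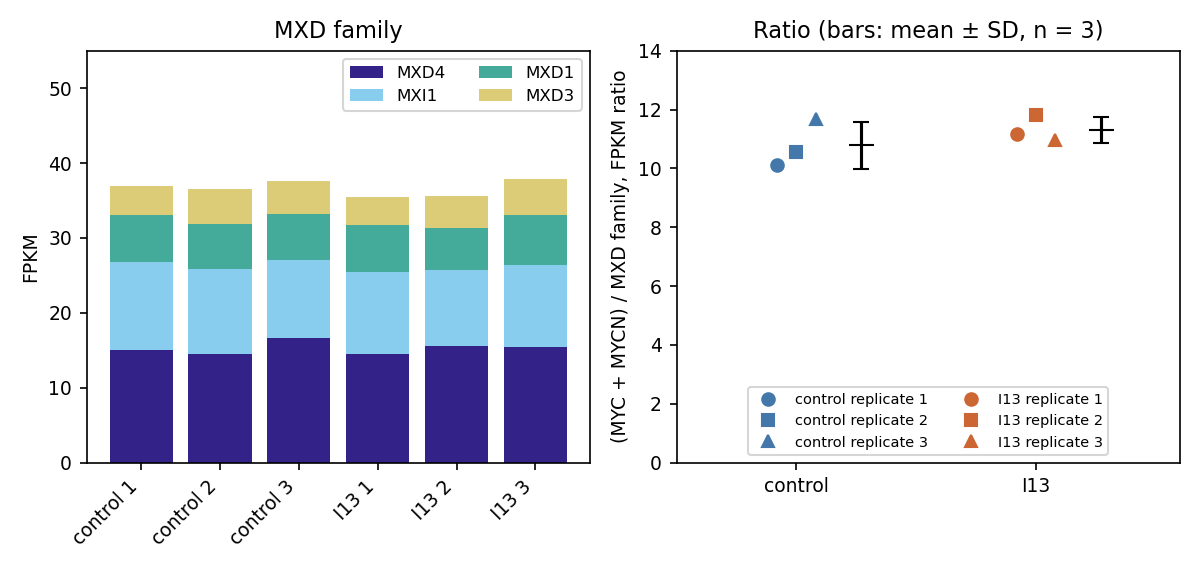
Left, FPKM (y axis) of MXD4, MXI1, MXD1 and MXD3 stacked for each library (x axis). Right, the ratio of summed MYC and MYCN to summed MXD family FPKM (y axis) by group, with symbols for the replicates and black bars for the mean ± SD of 3 libraries. The stacks sum to between 35.5 and 37.8 FPKM and the ratios lie between 10.1 and 11.8.

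MNT and MGA encode larger MAX partners. MNT (ENSG00000070444, chromosome 17 from 2384060 to 2401118, minus strand), a repressor that is expressed in most cells, was at 2.54, 2.52 and 2.70 FPKM in the control and 2.46, 2.65 and 2.37 FPKM in the I13 libraries. It was the lowest of the 9 genes tested and stood at the 51.9th percentile of all genes tested. Its log2 fold change was -0.05 (SE 0.096), and within the 4 libraries it was -0.06 (SE 0.097). MGA (ENSG00000174197, chromosome 15 from 41621224 to 41773081, plus strand), the scaffold of the polycomb complex PRC1.6, was at 7.11, 6.74 and 6.37 FPKM in the control and 7.23, 5.89 and 7.18 FPKM in the I13 libraries.

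Control replicate 3 and I13 replicate 2 were again the lowest of their groups for MGA. Its log2 fold change was 0.0007 (SE 0.098) over all libraries, 0.06 within the other 4 and -0.11 as the difference of I13 replicate 2 from control replicate 3. Its sign was below 0 by voom, at -0.005.

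MLX (ENSG00000108788, chromosome 17 from 42567068 to 42573239, plus strand), the partner of MondoA and ChREBP, was at 14.4, 12.9 and 13.6 FPKM in the control and 12.03, 14.5 and 12.5 FPKM in the I13 libraries. I13 replicate 2 was its highest library, while the other I13 libraries were below every control library. The log2 fold change was -0.07 (SE 0.084, 95% interval -0.27 to 0.13). Within the 4 libraries it was -0.15 (SE 0.070, unadjusted p = 0.0928, adjusted p = 0.676 from limma), and I13 replicate 2 was above control replicate 3 by a log2 difference of 0.09.

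In the order of mean FPKM over the 6 libraries, MYC (405) was followed by MXD4 (15.3), MAX (14.3), MLX (13.3), MXI1 (10.9), MGA (6.75), MXD1 (6.17), MXD3 (4.28), MNT (2.54) and MYCN (0.0626). The mean of MYC was 26.5 times that of MXD4. This factor and the order depend on the exon lengths behind the FPKM values, such as 3001 bases for MYC and 7058 for MXD4. The ranges of MXD4 and MAX overlapped, as did those of MAX and MLX, and each of these pairs kept its order in 5 of 6 libraries. MGA and MXD1 also overlapped in range, although MGA was above MXD1 in all 6 libraries. The other neighbours in this order did not overlap.

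The rest of the pathway was read from 8 lists with 93 genes, of which 90 were tested. No listed gene passed the adjusted p by limma or by voom. By limma 1 gene had an unadjusted p under 0.05, and it was lower with I13. This is 1.11% of the genes tested in the lists, against 5.14% of all genes, where 2.55% were higher and 2.59% lower. The order of these shares was the opposite when control replicate 3 was left out, alone or with I13 replicate 2. Without control replicate 3 and I13 replicate 2, 10 of the 90 listed genes (11.1%) and 1513 of 18811 genes (8.04%) had an unadjusted p under 0.05, and with only control replicate 3 left out these were 6 genes (6.67%) and 1179 genes (6.27%). By voom 3 of the 90 genes had an unadjusted p under 0.05. The groups did not overlap for 12 of the 90 genes (13.3%), 5 higher and 7 lower, against 9.52% of all genes tested.

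Of the remaining network proteins, MLXIP (MondoA), which carries a glucose response to DNA as a dimer with MLX, was at 20.98 ± 0.0625 FPKM (SD, n = 3) in control and 20.3 ± 0.799 FPKM (SD, n = 3) in I13 libraries, with a log2 fold change of -0.05 (SE 0.049). MLXIPL was listed at 0 in every library, and MYCL was at 0.142 FPKM or less. TXNIP is a target of MLX and MondoA that restrains glucose uptake. It was the gene with the unadjusted p under 0.05, at 68.7, 71.7 and 65.5 FPKM in the control and 61.4, 64.9 and 55.7 FPKM in the I13 libraries. All I13 libraries were below all control libraries, by a margin of less than 1 FPKM between control replicate 3 and I13 replicate 2. The difference on the log2 scale was -0.18 with a standard error of 0.068 (limma, unadjusted p = 0.0321 and adjusted p = 0.947), so TXNIP did not pass the correction. Omitting 1 library brought the unadjusted limma p above 0.05 in 4 cases. It became 0.0736 when control replicate 1 was omitted and 0.109 for control replicate 2, and among the I13 libraries 0.0611 for replicate 1 and 0.1005 for replicate 3. It was lower in the other cases, at 0.0289 when control replicate 3 and 0.0120 when I13 replicate 2 was omitted. Without both of these, TXNIP had a log2 fold change of -0.26 (limma, unadjusted p = 0.0106, adjusted p = 0.526), and by voom over all libraries its unadjusted p was 0.0179. No setting gave it an adjusted p under 0.05. ARRDC4, a second target of this kind, was at 2.76 ± 0.247 FPKM in control and 3.00 ± 0.225 FPKM in I13 libraries (SD, n = 3), a log2 fold change of 0.12 (SE 0.11). The 3 listed targets had a median of -0.16, with 1 above 0.

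Among 31 known MYC-activated genes, which serve ribosome assembly, nucleotide and polyamine synthesis and the cell cycle, 22 had a log2 fold change above 0 and 9 below 0, with a median of 0.045 against 0.0058 over all genes tested. None had an unadjusted p under 0.05 by limma. NPM1, a nucleolar chaperone gene and the most abundant of them, was at 435 ± 41.2 FPKM (SD, n = 3) in control and 419 ± 13.7 FPKM (SD, n = 3) in I13 libraries, a log2 fold change of -0.05 (SE 0.076). APEX1 was at 277 ± 4.66 FPKM in control and 262 ± 4.03 FPKM in I13 libraries (SD, n = 3), with a log2 fold change of -0.08 (SE 0.041, unadjusted p = 0.0921 from limma) and no overlap between the groups. By voom, PPAN and LDHA had an unadjusted p under 0.05, and both were named after their values were seen. LDHA, lactate dehydrogenase A, was at 122, 104 and 89.3 FPKM in the control and 89.7, 90.7 and 89.5 FPKM in the I13 libraries. Control replicates 1 and 2 were above every I13 library, and control replicate 3 was just below them. Its log2 fold change was -0.21 (SE 0.11, unadjusted p = 0.0815 by limma and 0.0089 by voom). PPAN, a ribosome assembly gene, was at 1.39 ± 0.302 FPKM in control and 1.85 ± 0.138 FPKM in I13 libraries (SD, n = 3), a log2 fold change of 0.41 (unadjusted p = 0.0508 by limma and 0.0407 by voom), from as few as 49 fragments per library. It shares its locus with the readthrough gene PPAN-P2RY11, so its value is uncertain.

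Of 6 genes that MYC is known to repress, 5 were tested, with 2 above 0 and 3 below 0 and a median log2 fold change of -0.09. GADD45A and NDRG1, the 2 most abundant, had log2 fold changes of -0.09 (SE 0.11) and -0.14 (SE 0.066), and NDRG1 was lower in every I13 library than in any control library (unadjusted p = 0.0734 from limma). CDKN2B was at 1 fragment or less in every library and was not tested.

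The genes of proteins that act with the network gave log2 fold changes on both sides of 0. Of 13 MYC coactivators and partners, which include the TRRAP and KAT5 acetyltransferase complexes, 4 were above 0 and 9 below 0, with a median of -0.002 and a range from -0.12 to 0.10. RUVBL2 and HCFC1, the 2 most abundant, had log2 fold changes of -0.002 (SE 0.078) and -0.001 (SE 0.082). Of 14 corepressor genes of the MXD proteins and MNT, 7 were above and 7 below 0. HDAC1, a deacetylase of the SIN3 complex, was at 56.7 ± 2.15 FPKM in control and 60.1 ± 1.75 FPKM in I13 libraries (SD, n = 3), a log2 fold change of 0.08 (SE 0.048), and RBBP4 had one of -0.02 (SE 0.062). Of 10 PRC1.6 partners of MGA, 8 were above 0 and 2 below 0, with a median of 0.022. TFDP1, the dimer partner of E2F proteins, was the most abundant and lay above every control library in all 3 I13 libraries without passing the test, at 72.1 ± 1.45 against 75.9 ± 1.01 FPKM (SD, n = 3, unadjusted p = 0.113 from limma), and CBX3 had a log2 fold change of 0.03 (SE 0.089). Of 13 genes that set the turnover of MYC protein, 7 were above and 6 below 0. SET, an inhibitor of the phosphatase that acts on MYC, and HUWE1, a ubiquitin ligase, had log2 fold changes of -0.01 (SE 0.070) and -0.05 (SE 0.044). HUWE1 was lower in every I13 library than in any control library, a pattern without overlap that 9.52% of all genes tested had in either direction. None of the genes in these 4 lists had an unadjusted p under 0.05 by limma or by voom.

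**Figure D4:**
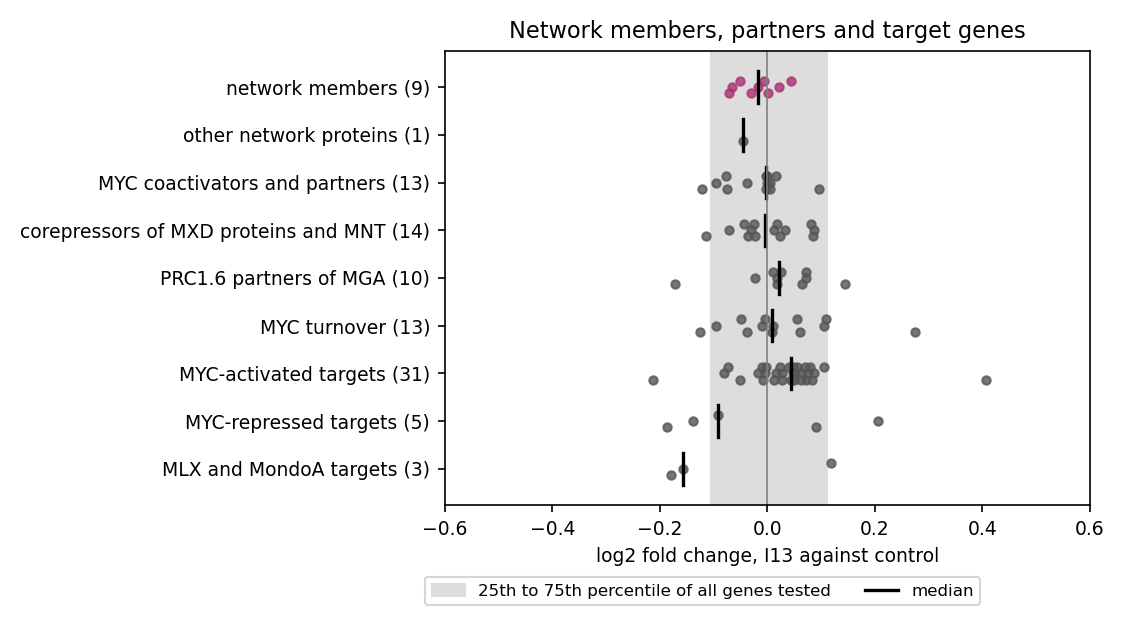
Log2 fold change of I13 against control (x axis) for each gene tested among the network genes and the 8 lists (y axis, with the number of genes tested in brackets), from limma on log2(FPKM + 0.1). Points are genes, black ticks are medians of a list and the grey band is the range from the 25th to the 75th percentile of all 18726 genes tested. The band is not matched for expression level. Network genes lie between -0.07 and 0.04, inside the band, and the gene farthest from 0 is PPAN at 0.41.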

How the data were processed

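Total RNA of Kasumi-1 cells was made into libraries with a stranded mRNA kit, and the authors deposited FPKM values per gene and library. The submitters' processing notes name Trimmomatic, HISAT2, Cufflinks and HTSeq and the build hg38. The sources used here name neither the annotation nor the strand setting of the counting. Samples were grouped by their titles. With exon lengths of GENCODE release 29 (GRCh38), 25773 of 27002 genes above 0 (95.4%) came out as whole fragments (tolerance 0.01) in each of the 6 libraries, which set the depth and the fragments behind each value. For another 1322 genes the fragments came from the step that their values share. The count test is not the main one because the unit is FPKM. Limma 3.58.1 in R 4.3.3 was run two-sided on log2(FPKM + 0.1) with a variance trend, 2 groups and no block, over genes with a mean of at least 0.1 FPKM. The change of low genes is understated on this scale. Voom with TMM scaling was limited to genes averaging 10 fragments or more. Both were also run on simulated counts, which lacked the grouping of libraries seen in the first principal component. That run does not measure how the tests perform on these libraries. P-values were adjusted by Benjamini-Hochberg over all genes tested. Genes were named by a rule: the 10 network genes, the 2 most abundant of each list and those with an unadjusted p under 0.05 in limma or an adjusted one in either test. The genes and the lists, written from general knowledge, were chosen with earlier results of these data known. HBB, planned as a marker, was not analysed here. Another planned marker is not reported here.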

Additional observations from a re-analysis of the deposited data

How the results depend on the processing

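Under all 16 alternatives, 0 of the 9 network genes passed the adjusted or the unadjusted p, and the smallest unadjusted p was 0.063. The log2 fold changes stayed between -0.15 and 0.11. Of 144 combinations of a network gene and an alternative, 130 kept the direction and 14 reversed it. Part of the 130 could not have reversed. The minimum FPKM, a replicate block, a term for control replicate 3 and I13 replicate 2, and the variance trend do not alter the estimate. Beside libraries left out singly, MGA reversed under median scaling (-0.0059) and voom (-0.0050), and MXD4 without control replicate 3 and I13 replicate 2 (0.023), an alternative chosen after seeing the data. Over fits that each omit 1 library, the ranges were -0.00094 to 0.11 for MYC, -0.038 to 0.028 for MAX, -0.027 to 0.089 for MXD1, -0.12 to 0.062 for MXD3, -0.058 to 0.040 for MXD4 and -0.049 to 0.096 for MGA. MXI1, MNT and MLX kept their direction.

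The number of listed genes with an unadjusted p under 0.05, 1 over all libraries, was 0 under median scaling and without a variance trend, 3 by voom, 6 (6.67%) with a term for control replicate 3 and I13 replicate 2, and 10 (11.1%) without both. Leaving out 1 library gave 0 to 6, with 6 without control replicate 3, 3 without I13 replicate 2 and 0 without any of the other 4. TXNIP had an unadjusted p above 0.05 in each setting with a count of 0 and under 0.05 in the others. Over all genes, the number at an adjusted p under 0.05 was 9 without a variance trend, 20 by voom and 0 to 2 with 1 library left out (2 without I13 replicate 1). The number at an unadjusted p under 0.05, 963 (5.14%), was 582 of 11517 genes (5.05%) with a minimum mean of 1 FPKM, where fewer genes were tested. It was 1427 (7.62%) with the term for the pair, 1513 (8.04%) without both of its libraries, and 764 to 1233 with 1 left out. The cause was not tested. The ratio of MYC and MYCN to the MXD family in I13 against control, 1.05, was 1.02 to 1.10 with 1 library left out.

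Deviations from the group means correlated at 0.32, -0.38 and -0.30 for libraries that share the replicate number 1, 2 and 3. The highest correlation was 0.51, between control replicate 3 and I13 replicate 2. Deviations within a group sum to 0, so these correlations depend on each other and cannot decide whether libraries were paired. With the replicate number as a block, 862 genes had an unadjusted p under 0.05 and 0 an adjusted one, and TXNIP had an unadjusted p of 0.0191 from limma. Depth limits MYCN, MYCL and CDKN2B, which the minimum of 0.1 FPKM kept out. Without it, their log2 fold changes were 0.46, 0.22 and 0.07, with limma 95% intervals from -0.52 to 1.43, -0.38 to 0.82 and -0.28 to 0.43.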
